A study of Mus musculus with 16 samples.

Results

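The cells of interest came from mice that had smelled 1-pentanethiol, a volatile thiol with a strong odor. From dissociated olfactory mucosa of these mice, cells that carried the green reporter (GFP+) were separated from cells that did not (GFP-) by fluorescence-activated sorting. The comparison covered 8 of the series' 16 arrays, 4 of GFP+ and 4 of GFP- cells, chosen by the sample titles and paired by replicate number. All mice carried S100a5-tauGFP, a reporter in which the S100a5 gene drives a GFP fused to tau, and were of both sexes and 7 to 12 weeks old. They were held singly in clean-air chambers for 40 h with a flow of 3.1 L/min, with 10 s pulses of the stimulus at intervals of 20 min after the first 26 h. A pool of 3 mice gave 1 GFP+ and 1 GFP- array, so each of the 4 odor pools contributed a pair. The other 8 arrays, from 4 pools given filtered air as vehicle, entered the test of the difference of the sorts at the end. They also entered alternative fits of the odor sort over all 16 arrays. The labels name no further gate, so the GFP- fraction holds every sorted cell without the reporter, neuron or not. The series' design text names another odorant, bourgeonal; the title and the sample labels name 1-pentanethiol, and that name is used here.

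An olfactory sensory neuron carries one odorant receptor type on its cilia. When an odorant binds, the receptor acts through the G protein Golf and adenylyl cyclase to open a cyclic-nucleotide-gated channel and then a calcium-activated chloride channel. Calcium entry switches on early transcription factors such as Fos within minutes and, over many hours, a slower set of genes that includes S100a5, which encodes a calcium-binding protein. Because the reporter follows S100a5, the sort is meant to separate neurons by recent activity. A receptor's signal in a fraction is a bulk RNA level, in which the number of neurons and the RNA per neuron cannot be told apart. The epithelium also holds immature neurons and dividing precursors, sustentacular (supporting) cells, microvillar cells, glands and, in the tissue beneath, blood and immune cells.

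Pcp4l1, which encodes a small protein of the calmodulin-binding PEP-19 family, and S100a5 itself were both higher in GFP+ cells. The receptor gene Olfr481 stands beside them as a strongly enriched receptor. The 250 bases before a start listed by RefSeq for each gene are shown, so that a slow activity-dependent gene can be set beside a receptor. The listed span of Olfr481 is short (chr7:108080796-108081734). Whether it begins at the transcript start or at the coding part is not given in the sources used here. For Pcp4l1 and Olfr481 the window abuts the listed gene; for S100a5 it precedes the one start in the promoter table, which lies inside the listed gene span (chr3:90606480-90611784). They are given 5′ to 3′ on the gene's own strand, from RefSeq on GRCm38.p6, with matches to the motifs searched in capitals.
S100a5 (chr3:90608272-90608521, plus strand): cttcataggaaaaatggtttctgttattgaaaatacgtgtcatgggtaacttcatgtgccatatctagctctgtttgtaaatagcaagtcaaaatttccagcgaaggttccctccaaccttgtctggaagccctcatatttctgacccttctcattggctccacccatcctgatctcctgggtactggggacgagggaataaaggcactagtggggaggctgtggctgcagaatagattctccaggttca
Pcp4l1 (chr1:171196269-171196518, minus strand): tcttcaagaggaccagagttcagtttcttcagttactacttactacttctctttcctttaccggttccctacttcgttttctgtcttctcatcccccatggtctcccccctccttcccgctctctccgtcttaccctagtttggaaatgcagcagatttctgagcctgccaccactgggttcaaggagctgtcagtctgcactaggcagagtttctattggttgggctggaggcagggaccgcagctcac
Olfr481 (chr7:108080546-108080795, plus strand): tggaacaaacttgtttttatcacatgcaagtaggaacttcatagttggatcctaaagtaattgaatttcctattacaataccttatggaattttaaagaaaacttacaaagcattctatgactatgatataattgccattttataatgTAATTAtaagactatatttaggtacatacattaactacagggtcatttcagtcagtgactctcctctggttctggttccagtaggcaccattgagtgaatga
The same window of 32851 promoters was searched for the cAMP response element TGACGTCA, its core TGACG (contained in the full element), the Ebf motif (TCCC and GGGA with 2 bases between) and the homeodomain motif TAATTA on both strands, and the TATA box TATAAA on the gene's strand alone. The windows of S100a5 and Pcp4l1 held none of these letters, and that of Olfr481 held TAATTA, in capitals above. TAATTA occurred in 4.84% of all promoters and in 166 of the 921 receptors with a promoter entry, in 19.2% of the 354 receptors higher in GFP+ cells with an entry and in 20.3% of the 261 lower ones. The TATA box was in 7.59% of all promoters and in 22.6% of the 921 receptors. Shares of all promoters count each entry, whereas a receptor with several entries counted once if any of them held the motif. The core TGACG was in 17.8% of all promoters and 4.34% of these receptors, the full element in 1.55% and in 1 receptor, and the Ebf motif in 0.779% and 0.434%. A listed receptor start need not be the transcript start. Receptor shares and shares of all promoters may therefore cover unlike regions, which was not tested. A match describes letters in this window and no more.

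Values are log2 signals, and a difference is GFP+ minus GFP- within a pool, averaged over 4 pools, ± its standard error from the limma fit with the pool as a block. Of 22206 probe sets, 4908 (22.1%) passed at an adjusted p of 0.05, 2299 (10.4%) higher and 2609 (11.7%) lower in GFP+ cells, and in 5950 (26.8%) the 4 GFP+ and 4 GFP- values did not overlap. The median of all differences was 0.13. The split between higher and lower moved with the scaling: with array medians set equal 13269 were higher and 2090 lower, and with the medians of the negative control entries set equal 584 were higher and 3938 lower. Those entries, taken by their identifiers, had a median of 6.08 on the GFP- and 6.36 on the GFP+ arrays. They were higher on the GFP+ array of every pool, by 0.157 to 0.381. What their probes match is not given in the sources used here. Their medians on single arrays (6.04 to 6.48) lay above the lower quartile of all tested probe sets (5.25 to 5.48). For 756 of the 2299 higher calls both groups lay at or under the negative control median of their arrays, so small rises of dim genes stand beside this shift, and its part in them was not tested. Pool 1 had the smallest contrast, with 654 probe sets over 1 and 1469 under -1, against 761 to 1122 and 1857 to 1947 in the other pools. Its GFP- array also had the lowest mean over neutrophil genes, 12.08 against 13.22 to 13.27. Arrays of one fraction correlated at 0.989 to 0.995 over probe sets and GFP+ with GFP- arrays at 0.950 to 0.970.

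Genes listed as slow to respond to neuronal activity were mostly higher in GFP+ cells. Of the 9 measured, 8 (88.9%) passed as higher and none as lower, against 10.4% and 11.7% of all probe sets. Their median difference was 0.99, against 0.13 for all probe sets. S100a5 is among the 8, and because its reporter made the sort, its rise is no independent result. The list was chosen with earlier results of these data known. S100a5, whose reporter defined the sort, read 16.36, 16.18, 15.77 and 16.12 on the GFP- arrays of pools 1 to 4 and 17.11, 17.11, 17.07 and 17.11 on the GFP+ arrays. The 4 GFP+ arrays were nearly equal (17.10 ± 0.019, SD, n = 4) and all above the GFP- arrays, which varied more (16.11 ± 0.25). The difference was 0.99 ± 0.13, or 1.99-fold (adjusted p = 0.00182). GFP- cells thus held S100a5 transcript at a level well above the negative controls of 6.08. The highest value on any array was 18.85, and whether the high S100a5 signals were compressed was not tested.

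Pcdh10, an activity-dependent delta-protocadherin that helps olfactory axons of a kind to stay together, had the largest difference of the group. It read 12.40, 12.03, 11.49 and 11.53 in GFP- and 14.07, 13.96, 13.29 and 13.52 in GFP+ cells, without overlap, a difference of 1.84 ± 0.12 (3.59-fold, adjusted p = 5.62e-05). Pcp4l1 rose by 1.60 ± 0.12 (adjusted p = 8.64e-05), from 14.02, 14.02, 13.73 and 13.93 to 15.65, 15.72, 15.34 and 15.39. These arrays of a fraction lay within a narrow band, so every pool gave a similar rise.

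Kirrel2, an adhesion molecule of olfactory axons whose level follows activity, went from 13.96, 13.91, 12.97 and 13.67 in GFP- to 14.93, 14.89, 13.93 and 14.66 in GFP+ cells. The groups overlapped, because pool 3 was low in both fractions, but the rise within each pool was alike, at 0.96, 0.97, 0.97 and 1.00. It passed in the paired fit (0.98 ± 0.11, adjusted p = 0.000794), whereas adjusted p was 0.0268 without the pool block and 0.103 when all 16 arrays were fitted without it. Lrrc3b, which encodes a leucine-rich repeat membrane protein, had the same form: 13.76, 13.21, 12.25 and 13.62 against 15.16, 14.79, 13.41 and 14.95, with rises of 1.41, 1.57, 1.16 and 1.33 (1.37 ± 0.12, adjusted p = 0.000255). Sema7a, a membrane-anchored semaphorin (1.09 ± 0.11), and the ephrin receptor Epha5 (0.95 ± 0.12) rose in all 4 pools. Camk2n1, an inhibitor of CaM kinase II, passed narrowly (0.96 ± 0.27, adjusted p = 0.0441) and was not higher in pool 1 (-0.15, 1.40, 1.05 and 1.56). Bdnf, the neurotrophin, lay under the negative controls in both fractions and did not pass (0.23).

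**Figure D1:**
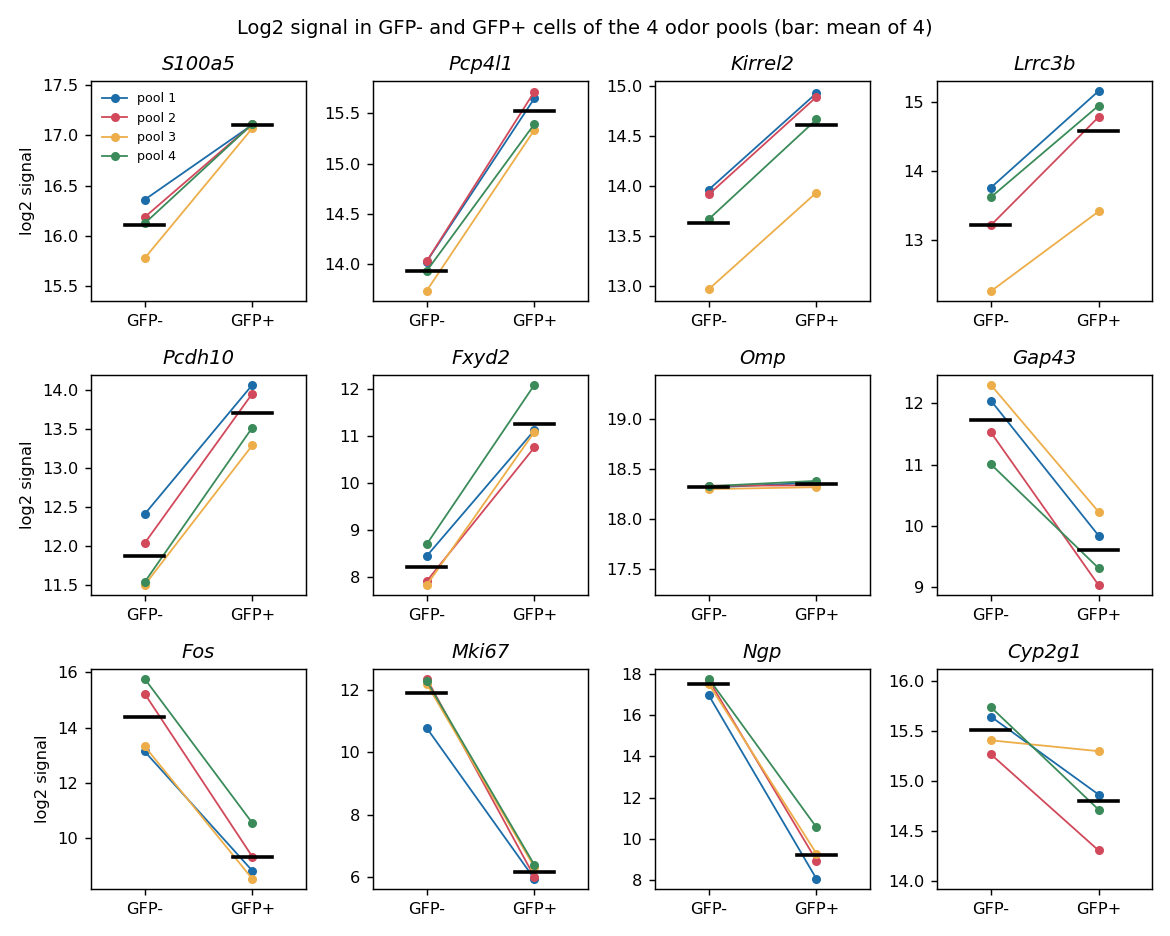
Log2 signal (vertical axis, own range in each panel) of 12 genes in GFP- and GFP+ cells, each line joining the 2 arrays of a pool and each black bar the mean of 4 arrays. S100a5, Pcp4l1, Kirrel2, Lrrc3b, Pcdh10 and Fxyd2 rose in every pool, Gap43, Fos, Mki67 and Ngp fell in every pool, and Omp stayed near 18.3 in both fractions.

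Odorant receptors differed between the fractions in large number and went both ways. Of 1080 receptor probe sets, 417 (38.6%) passed as higher and 311 (28.8%) as lower, against 10.4% and 11.7% of all probe sets, and 352 did not pass. Their median was 0.26, turning to -0.02 with negative control medians set equal, and the interquartile range of their differences was 2.22 against 0.434 over all probe sets. Differences of at least 2 upward were found for 144 receptors and of at least 2 downward for 167; at least 4, for 12 and 46. Of all 152 probe sets at 2 or more, 144 were receptors, and of the other 8 the symbols of Fxyd2 and Taar4 were known and 6 carried none. A receptor was higher in all 4 pools in 447 cases, lower in all 4 in 344, and mixed in 289. Between pools the receptor differences correlated at 0.910 to 0.944, which describes these pools and is no test.

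**Figure D2:**
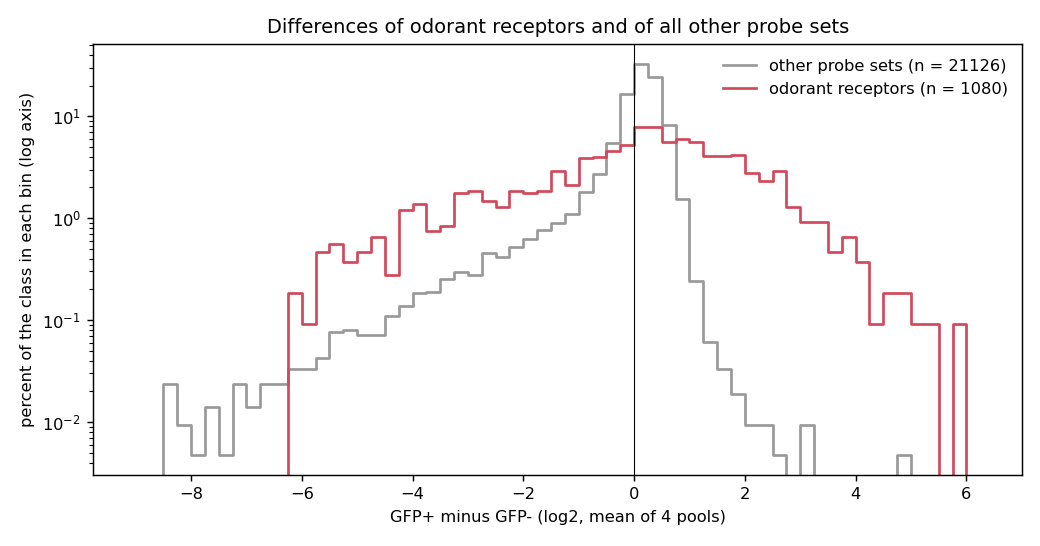
Percent of the class (vertical, log axis) in each bin of 0.25 of the GFP+ minus GFP- difference (horizontal, log2, mean of 4 pools) for 1080 odorant receptors in red and 21126 other probe sets in grey. Receptors spread from -6.23 to 5.80, and 8 other probe sets lie at 2 or more.

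Olfr110 on chromosome 17 had the largest rise. Its GFP- arrays read 8.11, 7.14, 7.13 and 6.58 and its GFP+ arrays 13.12, 12.59, 13.11 and 13.35, a difference of 5.80 ± 0.27 or 55.8-fold (adjusted p = 1.51e-05). Olfr481 on chromosome 7, whose upstream sequence is given above, went from 5.37, 6.75, 6.83 and 7.26 to 11.12, 11.81, 12.08 and 12.39 (5.30 ± 0.15, adjusted p = 3.78e-06). In both genes the lowest GFP+ array stood more than 3 units over the highest GFP- array. Olfr1093 on chromosome 2 rose by 5.06 ± 0.26, Olfr1183 by 4.85 ± 0.23, Olfr536 by 4.63 ± 0.17, Olfr491 by 4.59 ± 0.16, Olfr309 by 4.49 ± 0.19, Olfr1132 by 4.22 ± 0.28 and Olfr175 by 4.11 ± 0.22. Olfr613 read 5.70, 5.80, 5.85 and 5.13 in GFP- cells, under the negative control median of each array, and 9.99, 10.03, 10.07 and 11.82 in GFP+ cells; measured against that median it was at least 21.1-fold higher.

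At the other end, Olfr677 on chromosome 7 read 12.10, 12.74, 12.65 and 12.62 in GFP- cells and 5.74, 6.78, 6.51 and 6.19 in GFP+ cells, where it lay close to the negative controls. The difference was -6.23 ± 0.13 (adjusted p = 2.24e-06), the lowest of any receptor. Olfr1384 fell by 6.09 on the log2 scale (SE 0.27), and Olfr99, Olfr393, Olfr1406, Olfr1322, Olfr116, Olfr390 and Olfr1507 had differences of -5.77, -5.68, -5.67, -5.64, -5.57, -5.48 and -5.46. Olfr77 fell in every pool, but its GFP+ array of pool 1 read 9.50 and the other 3 arrays 6.36 to 6.53, so its mean of -5.68 ± 0.54 joins unequal pools. Pool 1 also had the highest GFP+ value, or shared it, for Olfr1384, Olfr99, Olfr393, Olfr1406, Olfr1322, Olfr116 and Olfr1507. The signal left in GFP+ cells thus differed between pools while the GFP- signal was steadier.

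The direction also varied with the chromosome on which a receptor gene lies; odorant receptor genes sit in clusters, and neighbours are often close relatives, so members of a cluster are not independent. On chromosome 10, 6 of 65 receptors were higher and 32 lower (median -0.62), and on chromosome 6, 2 of 27 were higher and 12 lower (-0.48). On chromosome 14, 24 of 39 were higher and 8 lower (1.13), and on chromosome 16, 21 of 36 and 3 (1.11). The largest groups lay between: 129 of 282 higher and 81 lower on chromosome 2, 86 of 230 and 52 on chromosome 7, and 59 of 129 and 34 on chromosome 9. Chromosomes 11, 19 and 17 were near balance, with 25 higher and 24 lower of 78, 20 and 25 of 61, and 12 and 18 of 49. No test of these shares was made.

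**Figure D3:**
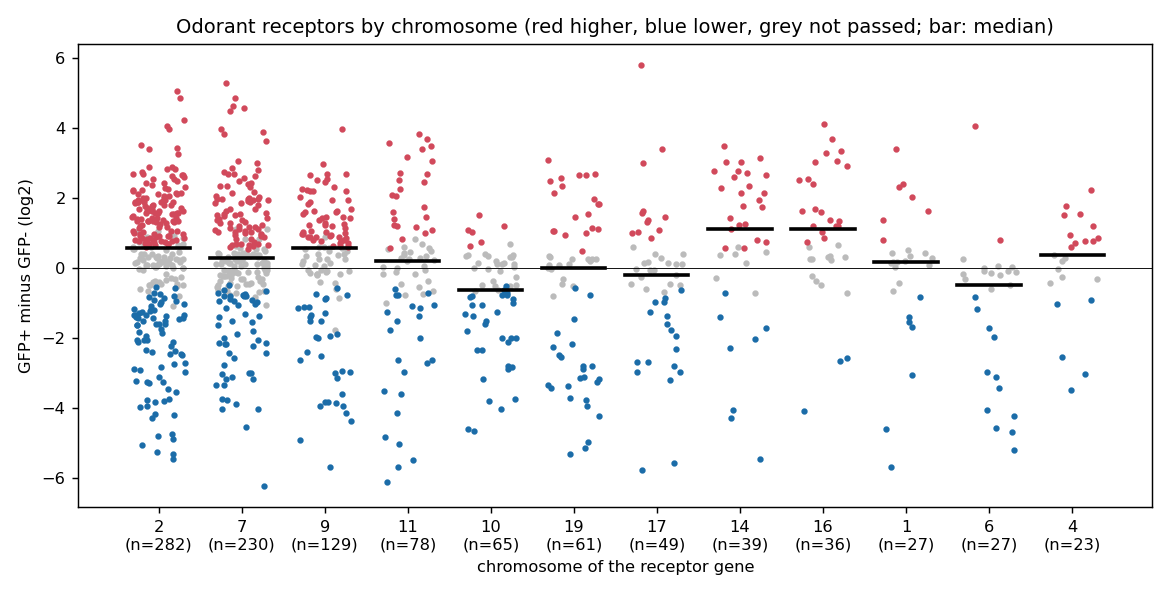
GFP+ minus GFP- difference (log2) of each odorant receptor, by the chromosome of its gene, for the 12 chromosomes with at least 20 receptors; red points passed as higher, blue as lower, grey did not pass, and bars mark medians. Chromosomes 14 and 16 have medians of 1.13 and 1.11 and chromosome 10 one of -0.62, with points on both sides in every column.

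Trace amine-associated receptors, a small family that detects volatile amines in place of the usual odorants, divided as well: 7 of 15 were higher, 3 lower and 5 did not pass (median 0.47). The shares of 46.7% higher and 20.0% lower compare with 10.4% and 11.7% of all probe sets. Taar4 read 9.16, 8.70, 10.04 and 8.92 in GFP- and 11.17, 11.58, 11.40 and 11.91 in GFP+ cells, with no overlap (2.31 ± 0.27, adjusted p = 0.000971). Taar9 went from 11.29, 11.43, 12.86 and 11.24 to 13.04, 13.07, 13.97 and 13.35 (1.65 ± 0.17); its GFP- array of pool 3 stood apart from the other 3, and it still rose in every pool. Taar8a, Taar5, Taar8c, Taar7b and Taar7e rose by 1.13 to 1.33, Taar5 at or near the negative controls. Taar2 fell from 10.56, 10.78, 10.67 and 10.92 to 7.66, 8.70, 7.62 and 8.07 (-2.73 ± 0.18, adjusted p = 5.76e-05), Taar7a had a difference of -1.66 ± 0.21, and Taar6 one of -0.95 ± 0.25. The Taar7 and Taar8 genes are close copies, and whether their probes tell the copies apart is not given in the sources used here. Olfr911-ps1, annotated as a receptor pseudogene, was higher by 1.77 ± 0.16.

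Vomeronasal receptors belong to a separate organ and serve as a check of faint signal. Of 319 probe sets 62 (19.4%, against 10.4% of all probe sets) were higher and none lower, with a median of 0.37. Of the 319, however, 276 lay under the negative controls in both fractions. With the negative control medians set equal only 5 were higher. The 3 largest, Vmn2r99 (1.09 ± 0.14), Vmn2r21 (1.05 ± 0.19) and Vmn2r82 (0.96 ± 0.23), were all under the controls, and no level can be read from them.

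General markers of mature olfactory neurons barely differed. Of 17, 1 was higher and 1 lower, with a median of 0.06 that turned below 0 with receptor or negative control medians set equal. These shares were 5.88% each, against 10.4% higher and 11.7% lower of all probe sets. Omp, the olfactory marker protein, read 18.31, 18.33, 18.30 and 18.33 in GFP- and 18.36, 18.34, 18.32 and 18.38 in GFP+ cells (0.03 ± 0.11, adjusted p = 0.859), near the highest value on any array of 18.85, so a difference there could be compressed. The receptor chaperones Rtp1 and Rtp2 and the transcription factors Ebf1 to Ebf4 did not pass (-0.04 to 0.26). The member that rose was Cidea, a lipid-droplet protein (11.59 ± 0.42 against 13.17 ± 0.34, SD, n = 4; 1.58 ± 0.12, adjusted p = 0.000113). The member that fell was Calb2, calretinin, a calcium-binding protein of many neuron types: it read 16.08, 16.15, 16.04 and 15.95 in GFP- and 13.07, 12.25, 13.24 and 11.79 in GFP+ cells (-3.47 ± 0.24, adjusted p = 7.56e-05).

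Of 19 genes of the transduction cascade 5 were higher, 3 lower and 11 did not pass (median 0.11, turning to -0.17 with negative control medians set equal). The shares of 26.3% higher and 15.8% lower compare with 10.4% and 11.7% of all probe sets. The rises were not stable: 3, 0, 2 and 2 genes were higher without pools 1 to 4, 2 with receptor medians set equal and none with negative control medians set equal, while 3 were lower in each of these settings. The genes that did not pass included Gnal, the Golf subunit (0.14 ± 0.11), Adcy3, the cyclase (0.29 ± 0.12, adjusted p = 0.116), and Cnga2, the channel's main subunit (0.11 ± 0.11). Higher were the channel subunit Cngb1 (0.65 ± 0.14), the phosphodiesterases Pde1c (0.60 ± 0.12) and Pde4a (0.59 ± 0.12), the chloride channel Ano2 (0.48 ± 0.11) and the sodium-calcium exchanger Slc24a4 (0.45 ± 0.13). The 3 lower members are not specific to olfactory neurons: Gnas, the general stimulatory G protein (-3.30 ± 0.19), the regulator of G protein signalling Rgs2 (-5.69 ± 0.34) and the receptor kinase Grk3 (-0.81 ± 0.14, at or under the negative controls in GFP+ cells). Ciliary transport genes, which build the sensory cilium, had a median of 0.27 (-0.01 with negative control medians set equal). Of the 29, Ift172 alone was higher (0.47 ± 0.11) and none lower. That share of 3.45% compares with 10.4% of all probe sets. None was higher without pool 2, 3 or 4.

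Among genes for excitability, 8 of 22 voltage-gated channels were higher (36.4%, against 10.4% of all probe sets) and none lower (median 0.36). The count fell to 3, 2, 3 and 4 without pools 1 to 4, and to 1 with receptor or with negative control medians set equal. Scn4b, an auxiliary subunit of sodium channels, read 14.89, 14.48, 14.25 and 14.46 in GFP- and 15.40, 15.40, 15.01 and 15.33 in GFP+ cells (0.77 ± 0.13, adjusted p = 0.00483). Scn8a, Scn3a and Scn2a, pore subunits of sodium channels, the pacemaker channels Hcn4 and Hcn2 and the calcium channel Cacna1c rose by 0.42 to 0.65; Kcna4 passed too (0.66) but lay under the negative controls. Of 9 genes for the sodium pump and its FXYD regulators 2 were higher and 2 lower (median 0.14, -0.14 with negative control medians set equal). These shares were 22.2% each, against 10.4% higher and 11.7% lower of all probe sets. Fxyd2, the pump's gamma subunit, had the largest rise of any gene with a symbol outside the receptors: 8.45, 7.91, 7.83 and 8.70 in GFP- and 11.13, 10.76, 11.09 and 12.10 in GFP+ cells, a difference of 3.05 ± 0.16 or 8.27-fold (adjusted p = 2.11e-05). Fxyd4 rose by 0.80 ± 0.22, although in pool 4 both arrays read 7.00, and Fxyd6 (-1.17 ± 0.13) and the beta subunit Atp1b3 (-0.69 ± 0.12) fell.

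Synaptic vesicle genes gave 5 of 21 higher and none lower (median 0.27, -0.01 with negative control medians set equal, a scaling with 1 higher). Without pools 1 to 4 the number higher was 3, 2, 4 and 3, and the share of 23.8% higher compares with 10.4% of all probe sets. All 3 vesicle glycoproteins rose, Sv2c by 0.79 ± 0.12, Sv2b by 0.59 ± 0.15 and Sv2a by 0.51 ± 0.14, with synapsin Syn2 (0.66 ± 0.12) and complexin Cplx1 (0.62 ± 0.14). Dense-core vesicle genes went both ways, 3 of 14 each (median 0.22, -0.06 with negative control medians set equal). That is 21.4% each way, against 10.4% higher and 11.7% lower of all probe sets. Ptprn, a membrane protein of these vesicles, averaged 8.65 ± 0.29 (SD, n = 4) in GFP- and 10.44 ± 0.24 in GFP+ cells (1.79 ± 0.15, adjusted p = 0.000184), and the granin Chgb (1.11 ± 0.12) and the prohormone convertase Pcsk1 (0.67 ± 0.18) rose with it. The amidating enzyme Pam (-2.65 ± 0.25), the release factor Cadps2 (-2.22 ± 0.28) and the granin Scg2 (-1.63 ± 0.22) fell.

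Of 10 delta-protocadherins, cell-surface adhesion proteins, 5 were higher and none lower (median 0.51). The share of 50.0% higher compares with 10.4% of all probe sets. With negative control medians set equal 3 were higher and 2 lower, with quantile scaling 6 and 1, and without pool 2, 3 were higher. Beside Pcdh10 the others that passed as higher were Pcdh8 (1.37 ± 0.14), Pcdh7 (1.29 ± 0.14), Pcdh1 (0.67 ± 0.13) and Pcdh17 (0.62 ± 0.17). Pcdh8 read 10.25, 10.14, 10.04 and 10.17 in GFP- and 11.73, 11.66, 11.04 and 11.66 in GFP+ cells, with pool 3 lowest. Of 28 axon guidance genes 5 were higher (17.9%) and 3 lower (10.7%), near the 10.4% and 11.7% of all probe sets. The median was 0.14, and -0.14 with negative control medians set equal, where 1 was higher and 7 lower; without pools 1 to 4, 3, 1, 3 and 3 were higher. The genes that passed had the teneurin Tenm2 (0.76 ± 0.14) at one end and the repellent Sema3a (-0.76 ± 0.14) and the Slit receptor Robo2 (-0.62 ± 0.12) at the other. Regulators of receptor choice had 2 of 15 lower (13.3%, near the 11.7% of all probe sets) and none higher. Their median was -0.08, above 0 with array medians set equal, and 1 was lower without pool 2, 3 or 4. The 2 lower genes were Lbr, the lamin B receptor (-1.89 ± 0.21), and the heterochromatin protein Cbx5 (-0.62 ± 0.15). Lhx2, Ldb1 and Emx2, which act at receptor enhancers, had differences of -0.09 to -0.01 and did not pass.

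Further genes chosen by size were Galnt15, a glycosyltransferase (1.79 ± 0.15), Nell2, a secreted guidance protein (1.73 ± 0.13), and Steap1, a metalloreductase (1.61 ± 0.16). Nell2 read 6.29, 6.04, 6.42 and 5.43 in GFP- and 7.94, 8.06, 8.02 and 7.08 in GFP+ cells. The GFP- values of Nell2 and Galnt15 lay close to the negative controls, which limits their size.

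Immediate-early genes were lower in the fraction defined by activity: 20 of 31 fell and 1, Maff, rose (0.78 ± 0.13), with a median of -1.32. The shares of 64.5% lower and 3.23% higher compare with 11.7% and 10.4% of all probe sets. Fos read 13.14, 15.23, 13.33 and 15.77 in GFP- and 8.83, 9.34, 8.53 and 10.55 in GFP+ cells, without overlap (-5.06 ± 0.24, adjusted p = 1.74e-05). The GFP- values fell into a higher pair, pools 2 and 4, and a lower pair, pools 1 and 3. Zfp36, which destabilises cytokine messages, and the growth suppressor Btg2 were also highest in pools 2 and 4, at 11.14, 12.98, 11.66 and 13.56 and 10.60, 12.13, 11.52 and 12.58 in GFP- cells. Their differences were -4.73 ± 0.24 and -4.48 ± 0.29. Egr1 fell by 4.30 and Junb by 3.53 on the log2 scale. Arc and Npas4, which mark active neurons elsewhere, lay under the negative controls in both fractions, and neither the 3 probe sets of Egr3 (-0.39 to 0.41) nor Egr4 (-0.01) passed. Markers of immune cells fell in the same direction: all 18 neutrophil genes were lower, with mean levels over the list of 12.08 to 13.27 in GFP- and 6.46 to 7.11 in GFP+ cells. The part of such cells in the immediate-early values was not tested. The number falling was 14 to 20 when a pool was left out.

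Markers of young neurons and of dividing cells were lower in GFP+ cells. In a bulk sample, fewer cells of a type and less RNA per cell cannot be told apart. This holds for the receptors above and for every marker list that follows. Of 18 immature neuron genes 11 were lower (61.1%, against 11.7% of all probe sets) and none higher (median -0.58). Gap43, a growth-cone protein, read 12.05, 11.53, 12.30 and 11.01 in GFP- and 9.84, 9.03, 10.23 and 9.31 in GFP+ cells, with no overlap (-2.12 ± 0.15, adjusted p = 9.06e-05). Gng8, a G protein gamma subunit of immature neurons, was lower by a similar amount in each pool (11.10, 10.99, 11.56 and 10.14 against 7.53, 7.29, 8.12 and 6.41; -3.61 ± 0.12), and the axonal collapsin response protein Dpysl3 fell too (-2.90 ± 0.17). The largest fall on the list, Cxcr4 (-4.47 ± 0.19), is that of a chemokine receptor also made by leukocytes. Tubb3, Dcx and Stmn2 did not pass (-0.05, 0.21 and -0.36).

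Of 12 genes of globose basal cells and neuronal precursors 6 were lower and 1 higher (median -0.60). That is 50.0% lower and 8.33% higher, against 11.7% and 10.4% of all probe sets. Nhlh1, a transcription factor of newborn neurons, read 10.34, 10.38, 11.40 and 9.45 in GFP- and 7.03, 6.54, 6.91 and 5.52 in GFP+ cells (-3.89 ± 0.19, adjusted p = 1.95e-05), and the proneural factors Neurog1 (-1.25 ± 0.23) and Insm1 (-1.36 ± 0.12) fell with it. Kit, a receptor tyrosine kinase of precursors that mast cells share, had a difference of -3.24 ± 0.19; in GFP+ cells it lay under the negative controls. Neurod2, the gene that passed as higher, lay under them in both fractions.

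Nearly the whole cell cycle list fell, 26 of 27 genes (96.3%, against 11.7% of all probe sets), with a median of -2.51. Mki67, the proliferation antigen, read 10.78, 12.36, 12.19 and 12.29 in GFP- and 5.95, 6.01, 6.33 and 6.39 in GFP+ cells, where it was at the level of the negative controls (-5.73 ± 0.23, adjusted p = 1.22e-05). The cyclin Ccnb2 (-4.60 ± 0.26) and the checkpoint kinase Bub1 (-3.81 ± 0.29) were next in size among those named. Pool 1 had the lowest GFP- value for each of these 3 genes. Without pool 1 the median was -2.85 and all 27 were lower. Immune progenitors and neuronal precursors both divide, and this list does not tell them apart.

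Supporting cell genes fell less. Of 14 sustentacular genes 6 were lower (42.9%, against 11.7% of all probe sets) and none higher. Their median was -0.24, above 0 with array medians set equal, and 3 to 6 were lower with a pool left out. Cyp2g1, a cytochrome of these cells, read 15.64, 15.27, 15.40 and 15.74 in GFP- and 14.86, 14.30, 15.30 and 14.71 in GFP+ cells. Its fall was small and uneven, with pool differences of -0.78, -0.96, -0.11 and -1.02 (-0.72 ± 0.18, adjusted p = 0.0269), and GFP+ cells kept a signal far above the negative controls. Cyp2a5, Cyp2f2 and Cyp1a2, cytochromes of the same cells, differed by -0.91, -0.68 and -0.96, whereas the keratins Krt18 (-2.71 ± 0.14) and Krt8 (-2.19 ± 0.25), shared with other epithelial cells, fell further. Ermn, Cbr2 and Sec14l3 did not pass (0.01 to 0.34). Gland and respiratory cell genes gave 1 of 14 higher and 2 lower (median 0.06, turning with receptor or negative control medians set equal). Their shares of 7.14% and 14.3% were near the 10.4% and 11.7% of all probe sets. Sox9, a transcription factor of gland and duct cells, fell by 3.57 (SE 0.19), and Scgb1c1, a secretoglobin, by 0.99 on the log2 scale. The odorant-binding protein genes Obp1a and Obp2a did not pass (0.12 and 0.03), nor did the mucin Muc5b (0.11).

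Genes of both kinds of microvillar cells fell further. Tuft-like cells, chemosensory cells that make leukotrienes and acetylcholine, had 13 of 18 genes lower and none higher (median -1.55). That is 72.2% lower, against 11.7% of all probe sets. Trpm5, their cation channel, read 9.63, 10.19, 10.56 and 10.01 in GFP- and 6.51, 6.27, 5.74 and 6.20 in GFP+ cells (-3.92 ± 0.25, adjusted p = 5.19e-05), and the master factor Pou2f3 (-1.90 ± 0.11) and taste G protein Gnat3 (-2.76 ± 0.26) fell too. The 2 largest falls, Alox5 (-4.38 ± 0.17) and Spib (-4.09 ± 0.16), are genes that leukocytes also express. Ionocyte-like cells, which pump ions, had 8 of 11 lower (72.7%, against the same 11.7%, with a median of -2.30). Foxi1, their master factor, read 11.35, 10.40, 11.35 and 10.62 in GFP- and 7.14, 7.77, 7.28 and 8.31 in GFP+ cells (-3.31 ± 0.33); the chloride channel Cftr (-3.16 ± 0.19), the factor Ascl3 (-3.01 ± 0.26) and the proton pump subunit Atp6v0d2 (-3.18 ± 0.22) fell with it. Hepacam2, an adhesion protein chosen by its test statistic, was steady in each fraction (12.25, 12.22, 12.36 and 12.24 and 7.26, 7.63, 7.49 and 7.52; -4.80 ± 0.12).

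Lists of other cell types were short. The share that passed ran from 8.33% for horizontal basal cells to 60.0% for guanylate cyclase D and Trpc2 neurons, against 22.1% of all probe sets. Of 12 horizontal basal cell genes 9 lay under the negative controls in both fractions, Krt5 and Krt14 among them, and only Trp63 passed, also under them (0.49; list median 0.01, turning with receptor or negative control medians set equal). Ensheathing glia had 1 of 9 higher, Prss56 (0.57, near the controls; median 0.35), and Sox10 and S100b did not pass. Endothelial cells had 2 of 10 lower, Pecam1 (-0.93) and Tek (-0.89), both near the controls (median 0.18, -0.10 with negative control medians set equal). Fibroblasts and mural cells had 3 of 11 lower (0.14, -0.14 with that scaling): fibronectin Fn1 (-6.69 ± 0.25), which macrophages also make, Rgs5 (-3.49 ± 0.15), and the smooth muscle actin Acta2 (-0.81 ± 0.16), while the collagens Col1a1, Col1a2 and Col3a1 did not pass. Platelet genes had 2 of 6 higher, Gp6 (0.54) and Treml1 (0.45), both under the controls (median 0.33). Of 5 genes of guanylate cyclase D and Trpc2 neurons, minor sensory populations, Gucy1b2 rose (0.94 ± 0.12) and Pde2a (-3.28 ± 0.18) and Car2 (-1.26 ± 0.14) fell (median 0.06, turning with quantile scaling or negative control medians set equal); Gucy2d itself lay under the controls, and Car2 and Pde2a are not confined to those neurons.

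Immune and blood cell genes made up the lowest differences of all. Every one of 18 neutrophil genes was lower, against 11.7% of all probe sets, with a median of -7.09. Ngp, the neutrophilic granule protein, read 16.95, 17.69, 17.50 and 17.75 in GFP- and 8.06, 8.94, 9.28 and 10.55 in GFP+ cells (-8.26 ± 0.27, adjusted p = 7.63e-06). The iron-binding Lcn2 (-8.44 ± 0.38), the resistin-like Retnlg (-8.42 ± 0.17), the calprotectin subunits S100a8 (-8.01 ± 0.22) and S100a9 (-7.81 ± 0.29), Chil3 (-7.73 ± 0.24) and the collagenase Mmp8 (-7.51 ± 0.26) lay in the same range. The GFP+ arrays were not free of these transcripts: Ngp and Lcn2 were highest in pool 4, at 10.55 and 10.57. Ctse, an aspartic protease chosen by size, fell by 7.53 on the log2 scale.

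Of 19 genes of monocytes and macrophages 13 were lower and none higher (median -2.08), and the same number passed with any pool left out. The share of 68.4% lower here, and of 81.8% for MHC class II and dendritic cells below, compares with 11.7% of all probe sets. Ly6c2 read 14.02, 15.04, 14.84 and 15.03 in GFP- and 6.38, 5.98, 6.45 and 6.55 in GFP+ cells (-8.39 ± 0.22); Ly6c1 (-8.28 ± 0.28) is a near-identical copy, so the 2 values may not be separate. The chemokine receptor Ccr2 (-6.02 ± 0.12), the integrin Itgam (-6.41 ± 0.33) and the tetraspanin Cd37 (-6.82 ± 0.17), like Cd24a (-6.01 ± 0.13), had large falls, whereas C1qa, C1qb, C1qc and Mrc1, genes of resident macrophages, did not pass (-0.47 to 0.27). Antigen presentation fell too, with 9 of 11 genes of MHC class II and dendritic cells lower (median -1.23), led by H2-Ab1 (-5.38 ± 0.14), H2-Aa (-4.71 ± 0.23) and H2-Eb1 (-3.68 ± 0.18).

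Among lymphocytes, 7 of 12 B lineage genes were lower (58.3%, against 11.7% of all probe sets, with a median of -1.96). Jchain, the joining chain of secreted antibodies, read 10.74, 12.50, 12.49 and 12.74 in GFP- and 5.10, 5.31, 5.12 and 5.05 in GFP+ cells, the latter under the negative controls, and was at least 54.1-fold lower; the antigen receptor subunits Cd79a (-4.52 ± 0.31) and Cd79b (-3.62 ± 0.30) followed. Of 13 T and natural killer cell genes 10 were lower (median -1.73), such as Klrb1c (-3.88 ± 0.20), Il7r (-3.32 ± 0.25) and Gzma (-3.19 ± 0.33). Mast cells and basophils had 4 of 8 lower (median -0.68): Hdc, which makes histamine (-3.94 ± 0.29), and the proteases Mcpt8 (-3.23 ± 0.22) and Cpa3 (-3.02 ± 0.38), with the IgE receptor subunit Ms4a2 (-1.34 ± 0.16). Of 6 erythroid genes 5 were lower (median -1.54): carbonic anhydrase Car1 (-6.46 ± 0.22), the anion exchanger Slc4a1 (-3.24 ± 0.31), the heme enzyme Alas2 (-2.23 ± 0.23), Gata1 and Klf1. The shares lower were 76.9% for T and natural killer cells, 50.0% for mast cells and basophils and 83.3% for erythroid cells. They compare with the same 11.7% of all probe sets. None of the genes on these blood cell lists, platelets aside, passed as higher.

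**Figure D4:**
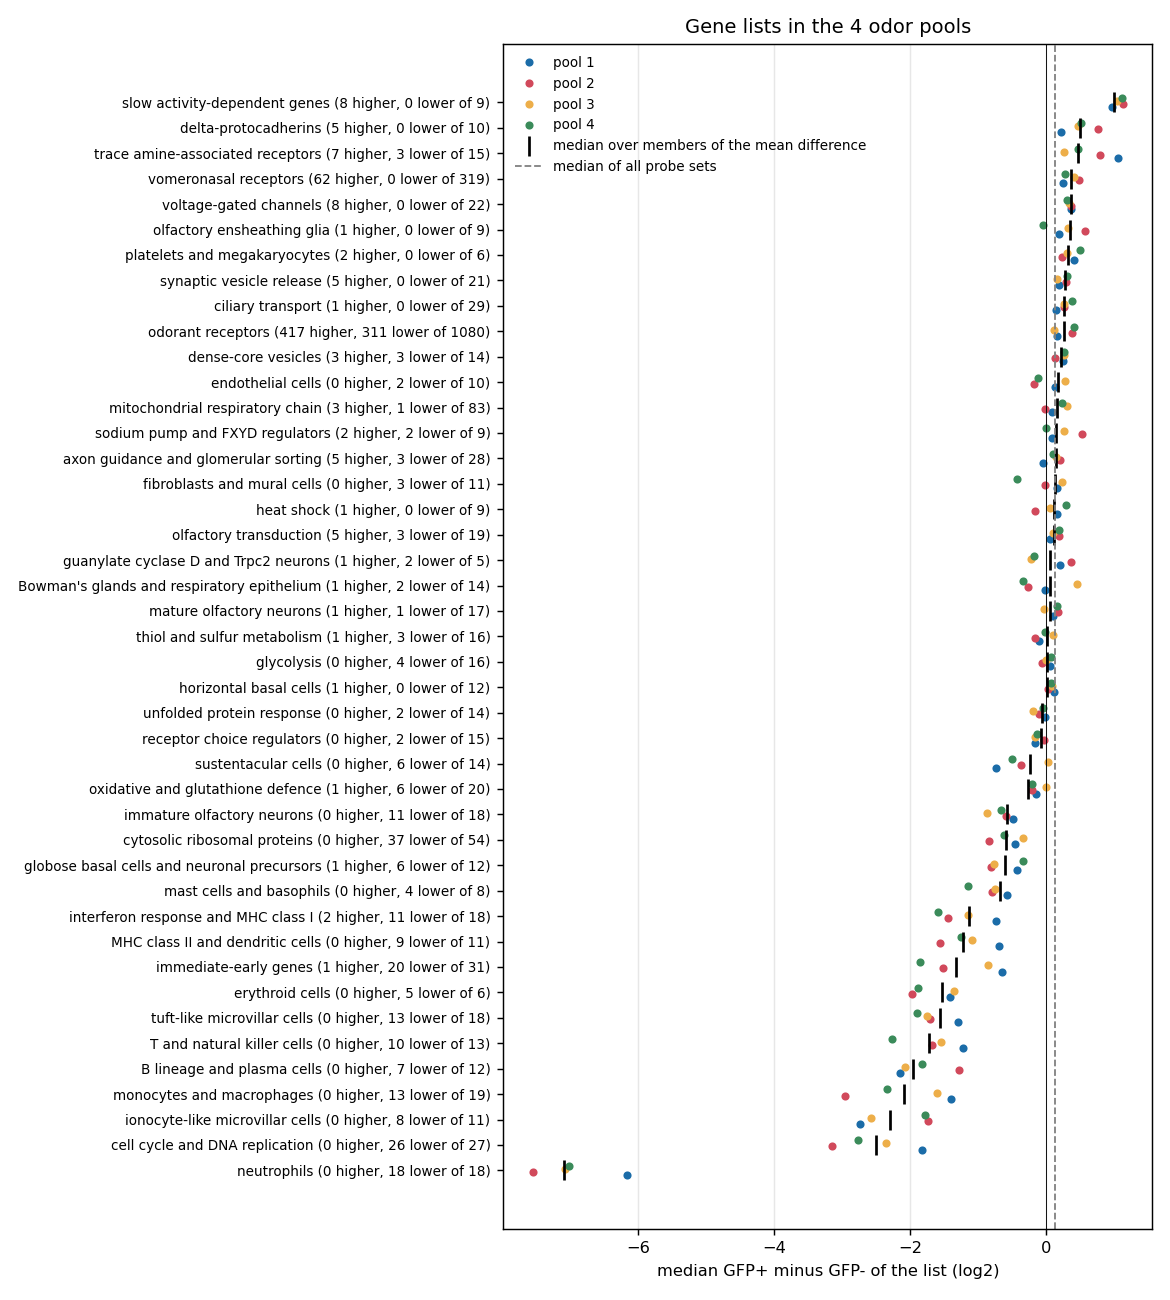
Median GFP+ minus GFP- difference (log2) of each gene list in the 4 odor pools (colored points) and over the pools' mean differences (black bars), with the number of members higher and lower of those measured; the dashed line is the median of all probe sets, 0.13. Slow activity-dependent genes are the highest list at 0.99, and neutrophil genes the lowest at -7.09, with pool 1 nearest 0.

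Lists of general functions differed in the share that passed, from 4.82% of the respiratory chain to 72.2% of the interferon list, against 22.1% of all probe sets. Interferon response and MHC class I genes had 11 of 18 lower and 2 higher (median -1.13); the lower ones were led by Ifitm3 (-5.45 ± 0.33), H2-D1 (-3.98 ± 0.26) and B2m (-3.97 ± 0.18), and Mx2 (0.73 ± 0.14) and Ifit1 (0.52 ± 0.12) rose. Cytosolic ribosomal proteins had 37 of 54 lower and none higher (median -0.59), with Rplp0 (-1.48 ± 0.13), Rps26 (-1.24 ± 0.17) and Rps20 (-1.22 ± 0.12) the lowest; 14 to 29 fell with a pool left out, and 18 with array medians set equal. The mitochondrial respiratory chain had 3 of 83 higher and 1 lower (median 0.16, -0.12 with negative control medians set equal): Atp5k (0.61 ± 0.12) rose, and Cox7b2 (0.80) and Cox6b2 (-1.01), isoforms of the testis, changed near the controls; none was higher with negative control medians set equal. Glycolysis had 4 of 16 lower and none higher (median 0.02, turning with receptor or negative control medians set equal). The share lower was above the 11.7% of all probe sets, but without pool 2, 3 or 4 only 2 were lower. The glucose transporter Slc2a3 had a difference of -5.32 ± 0.31, lactate dehydrogenase Ldha one of -3.21 ± 0.22 and Pgk1 one of -0.59 ± 0.15.

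Oxidative and glutathione defence had 6 of 20 lower and 1 higher (median -0.26, above 0 with array medians set equal; 4 lower and none higher without pool 2 or 3): Gpx1 (-3.59 ± 0.24), catalase Cat (-2.99 ± 0.22) and Gstp1 (-1.83 ± 0.17) fell, and sulfiredoxin Srxn1 (0.59 ± 0.13) rose. Enzymes of thiol and sulfur metabolism, of interest because the odor is a thiol, had 3 of 16 lower and 1 higher (median 0.02, turning with receptor or negative control medians set equal). The 4 of 16 called are near the 22.1% of all probe sets, and without pool 2 or pool 3, 1 was lower and none higher. The sulfur dioxygenase Ethe1 (-1.39 ± 0.18), the sulfide oxidase Sqor (-0.91 ± 0.22) and Selenbp1, a methanethiol oxidase (-0.71 ± 0.16), fell, and cystathionine synthase Cbs (0.64 ± 0.16) rose. Heat shock genes had 1 of 9 higher, the cochaperone Bag3 (0.78 ± 0.14; median 0.12, -0.16 with negative control medians set equal), and the unfolded protein response 2 of 14 lower, Edem1 (-1.50 ± 0.11) and Xbp1 (-0.44 ± 0.12; median -0.06, above 0 with array medians set equal). The shares of 11.1% higher for heat shock and 14.3% lower for the unfolded protein response were near the 10.4% and 11.7% of all probe sets. For oxidative and glutathione defence the shares were 5.0% higher and 30.0% lower. The neutrophil and monocyte lists fell on the same arrays as the lower members of these functions, and the part of those cells was not tested.

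Whether the sort after 1-pentanethiol differed from the sort in filtered air was tested as the difference of both differences, over all 16 arrays with the 8 pools as blocks. One vehicle array stood apart, that of GFP+ cells of pool 2, whose negative controls centred on 7.28 where those of its 3 counterparts centred on 6.22 to 6.38, so values without that pool are given too. Of 22206 probe sets 14 (0.063%) passed, all of them odorant receptors with a larger GFP+ minus GFP- difference after the thiol; 10 passed without vehicle pool 2. Olfr1183 had odor pool differences of 4.82, 4.01, 5.53 and 5.05 and vehicle pool differences of 0.39, -0.02, 1.49 and 0.27. The odor pools all lay above the vehicle pools, by 4.32 ± 0.37 on average (adjusted p = 0.000783, and 0.0083 without vehicle pool 2). A larger difference can come from a higher GFP+ or a lower GFP- signal. For Olfr1183 the GFP+ mean was 11.30 in filtered air and 11.46 after the thiol, and the GFP- mean 10.77 and 6.61. For Olfr175 the GFP+ mean was 12.93 and 13.53, and the GFP- mean 10.81 and 9.42. The difference of Olfr195 changed sign, from -1.36 in filtered air to 3.03 after the thiol, a gain of 4.40 ± 0.32 (adjusted p = 0.000391). Olfr1395 had differences of -0.12, 0.11, 0.03 and 0.94 after the thiol (mean 0.24 ± 0.19, adjusted p = 0.392) and a mean of -2.88 in filtered air. It is the one member of the 14 that did not pass within the odor sort; the other 13 passed there as higher.

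Olfr330 (3.40 after the thiol and 0.03 in filtered air), Olfr325 (3.48 and 0.43), Olfr286 (3.24 and 0.36) and Olfr1212 (2.68 and -0.14) had small differences without the odor. Olfr1193 (2.14 and -1.20) and Olfr1279 (1.90 and -1.04) were lower in GFP+ cells without it, and Olfr1284 (4.05 and 1.20) was already higher in GFP+ cells. These 10 receptors passed in all 15 alternatives that were run. Olfr328 (3.69 and -1.73), Olfr224 (3.59 and -0.75), Olfr1396 (2.06 and 0.01) and Olfr175 (4.11 and 2.12) passed (adjusted p = 0.0172, 0.0361, 0.0263 and 0.0361) but each was lost in 7 or 8 of the 15 alternatives, among them most of those that left out a single odor or vehicle pool, with adjusted p up to 0.124, 0.143, 0.124 and 0.154. Trended moderation also lost Olfr328 and Olfr224, and the fit without the pool block Olfr175. Most of the receptors that stood highest after the thiol are not among the 14: Olfr110, Olfr481, Olfr1093, Olfr613, Olfr536, Olfr491, Olfr309 and Olfr1132 did not pass this test. S100a5, Fxyd2 and all members of the other lists did not pass it either; for S100a5 the difference of the sorts was 0.12 ± 0.18.

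**Figure D5:**
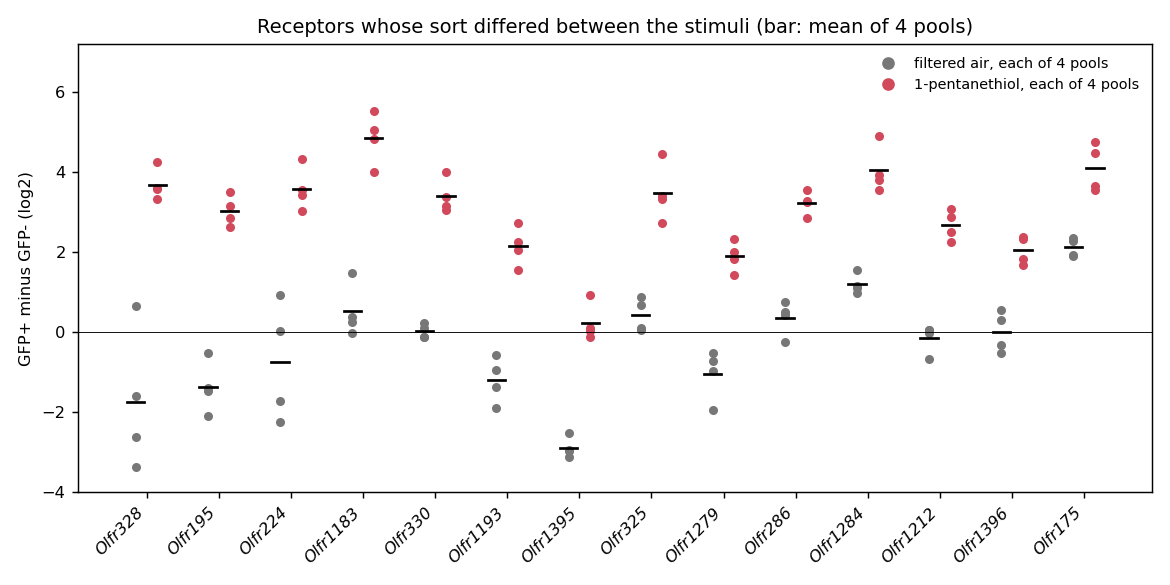
GFP+ minus GFP- difference (log2) in each of 4 pools after filtered air (grey) and after 1-pentanethiol (red) for the 14 receptors whose sort differed between the stimuli, with bars for the mean of 4 pools, in order of the gain. For each receptor every red point lies above every grey point; Olfr1395 ends near 0, and Olfr175 starts from 2.12.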

How the data were processed

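Biotin-labelled RNA of sorted cells was hybridized to Clariom S mouse arrays, 1 array per fraction and pool. The values are the log2 signals deposited by the authors, made with Affymetrix Expression Console per the submitters' processing notes; for its version, summarization and normalization the sources used here give nothing. No further scaling or filter was applied. Of 22206 tested probe sets (identifiers starting with TC or TSUnmapped) 19572 carry 1 gene symbol and 2634 none. Control entries (5222 negative) served as checks alone. The number of arrays limits the precision. With pools of 3 mice as replicates and as blocks, a p-value rests partly on how far the GFP+ minus GFP- difference varied between pools. The fit also draws each gene's variance toward a value shared by all probe sets, with 4.178 prior against 3 residual degrees of freedom. A standard error can thus exceed the spread of a gene's 4 pool differences, as for Kirrel2.

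limma 3.58.1 (R 4.3.3; lmFit, eBayes) was fitted to the 8 odor arrays with the pool as a block (7.178 total degrees of freedom), two-sided, with Benjamini-Hochberg adjustment over all probe sets. The pairing comes from the sort: both fractions of a pool are from the same mice, and the deviations of its 2 arrays from their group means correlated at 0.0119 to 0.183. The difference of the sorts was an interaction over 16 arrays with 8 pool blocks (10.72 degrees of freedom). The fits were tested on simulated data. A gene was called under the controls where all 4 arrays of a group lay at or under their negative control median; "at least" folds are against that median.

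Members and gene lists were chosen with earlier results of these data known. Genes were named by rule: among those passing without overlap of the groups, the 10 highest and 10 lowest receptors and other genes by difference and the 6 highest and 6 lowest others by moderated t; with overlap allowed, the 3 largest passing members of each list, 10 genes always (S100a5, Omp, Kirrel2, Pcp4l1, Gap43, Fos, Cyp2g1, Adcy3, Cnga2, Gnal), and the 14 receptors whose sort differed. Other list members were named after their values were seen. Alternatives covered the scaling, dim probe sets, moderation, the block, the arrays in the fit and each pool left out. Names are those of the platform annotation, and promoters those of RefSeq (GRCm38.p6), in which 921 of 1080 receptors had an entry.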

Additional observations from a re-analysis of the deposited data

Results flagged for a closer look

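Single arrays stood apart within their group of 4 for 20 of 332 sets of values of the named genes (6.02%), their gap to the nearest other array taking most of the group's range, where chance alone gives about 1 in 20. In GFP+ cells of pool 1 these were Olfr77 (9.50 against 6.36 to 6.53 on the other arrays), Cidea (13.68 against 12.95 to 13.05), Grk3 (5.58 against 5.26 to 5.30), Scgb1c1 (11.58 against 12.83 to 12.95) and Olfr1212 (12.69 against 11.96 to 12.03). In GFP+ cells of pool 2 they were Ptprn (10.08 against 10.51 to 10.59), Pecam1 (5.42 against 5.93 to 5.95) and Gzma (4.61 against 6.22 to 6.35), and in pool 3 Pcdh8 (11.04 against 11.66 to 11.73). In GFP+ cells of pool 4 they were Olfr613 (11.82 against 9.99 to 10.07), Nell2 (7.08 against 7.94 to 8.06), Robo2 (11.38 against 11.90 to 11.92), Fxyd4 (7.00 against 7.95 to 8.14), Ccnb2 (7.52 against 6.61 to 6.66), H2-Aa (7.99 against 8.48 to 8.52) and B2m (12.50 against 11.69 to 11.79). In GFP- cells they were Mki67 (10.78 against 12.19 to 12.36), Jchain (10.74 against 12.49 to 12.74) and Rps20 (12.18 against 12.50 to 12.53) in pool 1, and Taar9 (12.86 against 11.24 to 11.43) in pool 3.

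The sort differed between the stimuli for 14 receptors, by the interaction test. The gains of the GFP+ minus GFP- difference with 1-pentanethiol were 5.42 for Olfr328, 4.396 for Olfr195, 4.34 for Olfr224, 4.32 for Olfr1183, 3.37 for Olfr330, 3.34 for Olfr1193 and 3.12 for Olfr1395. They were 3.05 for Olfr325, 2.94 for Olfr1279, 2.88 for Olfr286, 2.85 for Olfr1284, 2.83 for Olfr1212, 2.05 for Olfr1396 and 1.99 for Olfr175. Olfr1279 lay under the negative controls on all 4 GFP- arrays of the odor pools.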

How the results depend on the processing

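The 4908 calls between the fractions became 15359 with array medians set equal, which moved the median of all differences by 0.326, and ranged from 2981 to 3957 with a pool left out (2981 without pool 2, 3216 without pool 3). The 2299 higher calls became 13269 with array medians, 1022 with receptor medians and 584 with negative control medians set equal (shifts of -0.062 and -0.281), and 994 to 1540 with a pool left out. The 2609 lower calls became 3938 with negative control medians set equal and ranged from 1987 to 2417 with a pool left out. Without the replicate block 4999 passed, 4418 of them shared with the paired fit. The 14 differences between the sorts ranged from 10 to 20 over all alternatives and were 14 without the replicate block, 13 of them shared. Of the 161 named genes that passed between the fractions, 132 passed in every alternative; the cause of the losses was not tested. Signs that turned were those of genes near 0: Omp had -0.017 with quantile scaling, -0.030 with receptor medians and -0.25 with negative control medians set equal, and with the last Cnga2 had -0.17, Gnal -0.14 and Olfr1395 -0.043. Signals at or under the negative controls limit the size of 804 of the lower and 933 of the higher calls.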
